A study of Mus musculus with 2 samples.

Results

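The A20 ubiquitin-editing complex and its partners are described here as 9 genes, chosen by name for their place in this pathway: Tnfaip3, Tnip1, Tnip2, Tnip3, Tax1bp1, Rnf11, Itch, Cyld and Otud7b. All 9 were found by symbol among the 55536 annotated genes, and all 9 reached the mean count of 10 used below to compare libraries. The samples were 2 libraries of ribosomal RNA-depleted total RNA from the nucleoplasm of bone marrow-derived macrophages of C57BL/6J mice. Both came from cells given 100 ng/ml lipid A, the TLR4-activating part of lipopolysaccharide, for 12 h, washed out for 12 h, and given 100 ng/ml lipid A again for 90 min. The libraries form 1 group, with 1 µg of starting RNA for replicate 1 and 500 ng for replicate 2. Libraries of untreated or singly treated cells, of cytoplasm and of whole cells were not analysed here, so every value is a level in this condition and not an induction. The labels number the libraries as biological replicates but enter the same donor for both, so the spread between them may be technical.

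A20, encoded by Tnfaip3, removes and rewrites ubiquitin chains on signalling proteins and so ends signalling from TLR4 and the TNF receptor to the transcription factor NF-κB, which itself drives Tnfaip3. A20 works with ubiquitin-binding adaptors, the ABIN proteins encoded by Tnip1, Tnip2 and Tnip3 and the protein TAX1BP1, and with the ubiquitin ligases ITCH and RNF11. CYLD and OTUD7B (Cezanne) are deubiquitinases that also restrain this pathway.

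Levels are TPM, an abundance scale that divides reads by transcript length, from the authors' first quantification unless the second is named, and are mean ± SD over the libraries (n = 2). The libraries held 29400104 gene counts in replicate 1 and 17789543 in replicate 2. A chi-square per degree of freedom of 150.1 over 14831 genes showed that they differed beyond sampling noise. All 10 macrophage markers reached 1 TPM in both libraries and summed to 1665 TPM in replicate 1 and 2298 in replicate 2, with Lyz2 highest at 899 ± 283. The markers of neutrophils summed to 0.82 and 1.13 TPM, those of dendritic cells to 0.68 and 1.00, those of stromal and endothelial cells to 0.75 and 0.97, and those of B, T and NK, and mast cells to at most 0.13 TPM each. The highest of these were S100a9 at 0.570, Zbtb46 at 0.525, Pecam1 at 0.445 and Cd79a at 0.070 TPM on average. No marker of these other cells reached 1 TPM in both libraries of the first quantification, and Ly6g, Elane, Cd3e, Cd3g, Ncr1, Pdgfra, Cpa3 and Mcpt4 had 0 counts there. The second quantification put Pecam1 at 1.31 and 7.20 TPM and Cd3d at 1.24 and 4.58 TPM.

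Promoter sequences are shown for the 3 members of highest level, because letters of the κB motif, to which NF-κB binds, lie before 3 of the 4 start sites. The sequences are the 250 bases before a start in RefSeq on GRCm38.p6, each 5′ to 3′ on the gene's strand, with letters matching the κB consensus on either strand in capitals. In order they are Tnfaip3 before its upstream start (chr10:19015411-19015660, minus strand), Tnfaip3 before its downstream start (chr10:19011964-19012213, minus strand), Tnip1 (chr11:54962941-54963190, minus strand) and Tnip3 (chr6:65590148-65590397, plus strand).
Tnfaip3 upstream start: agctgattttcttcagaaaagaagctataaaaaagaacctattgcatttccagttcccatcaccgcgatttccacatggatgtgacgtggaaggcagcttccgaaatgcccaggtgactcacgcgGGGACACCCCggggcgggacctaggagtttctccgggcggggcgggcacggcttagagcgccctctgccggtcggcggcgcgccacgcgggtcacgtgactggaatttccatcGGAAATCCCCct
Tnfaip3 downstream start: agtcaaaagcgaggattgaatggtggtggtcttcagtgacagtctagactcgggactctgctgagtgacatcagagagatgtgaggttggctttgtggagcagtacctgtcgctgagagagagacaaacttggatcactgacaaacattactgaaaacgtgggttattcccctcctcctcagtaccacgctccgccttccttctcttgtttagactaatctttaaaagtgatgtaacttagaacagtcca
Tnip1: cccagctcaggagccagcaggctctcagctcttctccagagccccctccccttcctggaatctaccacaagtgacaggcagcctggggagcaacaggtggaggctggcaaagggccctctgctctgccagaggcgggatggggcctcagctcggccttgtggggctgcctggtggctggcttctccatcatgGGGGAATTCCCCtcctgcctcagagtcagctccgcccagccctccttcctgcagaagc
Tnip3: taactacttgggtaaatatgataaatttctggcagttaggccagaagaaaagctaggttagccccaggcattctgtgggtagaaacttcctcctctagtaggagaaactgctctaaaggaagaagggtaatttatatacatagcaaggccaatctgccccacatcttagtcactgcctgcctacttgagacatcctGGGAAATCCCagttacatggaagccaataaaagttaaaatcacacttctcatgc

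The upstream Tnfaip3 window held 2 matches, at bases 125 to 116 and 12 to 3 before the start, and the downstream window held none. In Tnip1 the capitals cover several overlapping matches on both strands within bases 58 to 47 before the start. In Tnip3 the same bases, 54 to 45, matched on both strands. Of the 8 windows that RefSeq gave for 6 members, 4 held a match, the fourth being that of Cyld at bases 155 to 146. Among all 32851 windows of this length, 1281 (3.90%) held one. A match describes letters, not binding. The windows of Tnip2 and both of Tax1bp1 held no match in these bases.

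The 9 genes spanned a wide range of levels, with Tnip3 and Tnfaip3 at the top when all isoforms of a gene, coding or not, were summed. Tnip3 and Tnfaip3 stood 70th and 93rd of 22028 protein-coding genes by mean TPM, and Tnip1 622nd, while Otud7b stood 5402nd. The median of the 9 was 17.2 TPM, against 0.22 TPM for all protein-coding genes and 7.06 TPM for the 8506 that reached 1 TPM in both libraries. In bulk RNA, fewer cells with a transcript and less of it per cell cannot be told apart.

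**Figure D1:**
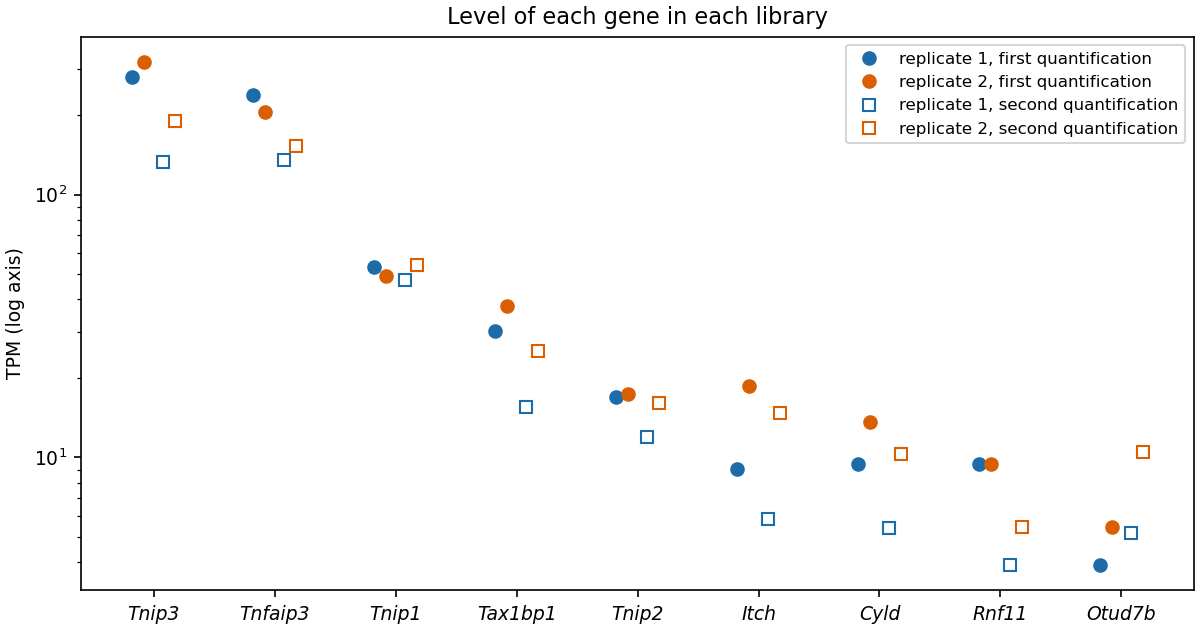
TPM of each gene (log axis) in replicate 1 (blue) and replicate 2 (orange), by the first quantification (filled circles) and the second (open squares). Tnip3 and Tnfaip3 lie above 130 TPM in every library by both quantifications, whereas Itch, Cyld, Rnf11 and Otud7b lie below 19 TPM.

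Tnfaip3 (ENSMUSG00000019850.11, chr10:19000910-19015657, minus strand, mm10) had 238 TPM in replicate 1 and 206 TPM in replicate 2, on 40332 and 15813 expected counts. Its mean was 222 ± 22.8 TPM. By the second quantification it had 136 TPM in replicate 1 and 153 TPM in replicate 2, so the order of the libraries on the TPM scale differed between the quantifications.

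Tnip3 (ENSMUSG00000044162.12, chr6:65525313-65634040, plus strand), encoding the ABIN protein known to be induced by TLR ligands, had the highest level of the 9 genes. It had 279 TPM in replicate 1 and 320 TPM in replicate 2, a mean of 299 ± 28.6 TPM. Both values exceeded those of Tnfaip3. They sum all isoforms, and protein-coding isoforms held 16.4% and 16.7% of Tnip3 TPM, against 68.3% and 53.7% of Tnfaip3 TPM. Tnip3 was therefore the higher gene over all isoforms but not over protein-coding ones. By the second quantification Tnip3 had 133 TPM in replicate 1 and 190 TPM in replicate 2, and these values overlapped those of Tnfaip3.

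The other ABIN genes were lower. Tnip1 (ENSMUSG00000020400.17, chr11:54910785-54962917, minus strand), whose product joins A20 to ubiquitinated NEMO, had 52.9 TPM in replicate 1 and 49.0 TPM in replicate 2 (50.9 ± 2.70). Tnip2 (ENSMUSG00000059866.13, chr5:34496087-34513991, minus strand), whose product also holds the kinase TPL2 in a stable complex, had 17.0 and 17.4 TPM (17.2 ± 0.31). The order of the ABIN genes was Tnip3, Tnip1 and Tnip2 in each library by each quantification.

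Among the substrate adaptor and the ligases, Tax1bp1 (ENSMUSG00000004535.12, chr6:52713729-52766780, plus strand), an adaptor that brings A20 to its targets and also an autophagy receptor, was highest, having 30.3 and 37.7 TPM (34.0 ± 5.28). Itch (ENSMUSG00000027598.16, chr2:155133509-155226855, plus strand), a HECT-type ligase, had 9.07 and 18.6 TPM (13.9 ± 6.77), the widest spread of the 9 relative to its mean. Rnf11 (ENSMUSG00000028557.10, chr4:109451098-109484728, minus strand), a small RING-type protein, had 9.44 and 9.46 TPM (9.45 ± 0.01).

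The other deubiquitinases were in the same low range. Cyld (ENSMUSG00000036712.15, chr8:88697028-88751945, plus strand), which cuts non-degradative chains, had 9.41 TPM in replicate 1 and 13.6 TPM in replicate 2 (11.5 ± 2.99). Otud7b (ENSMUSG00000038495.14, chr3:96104527-96161129, plus strand), which carries an OTU domain as A20 does, had 3.90 and 5.43 TPM (4.66 ± 1.08). By the second quantification Otud7b had 5.14 TPM in replicate 1 and 10.5 TPM in replicate 2 and stood above Rnf11, at 3.92 and 5.44 TPM. The order of the first 7 genes was the same in both quantifications. Neighbours in that order whose libraries overlapped in the first quantification were Tnip2 and Itch, Itch and Cyld, and Cyld and Rnf11.

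Differences between the libraries were taken from expected counts scaled by TMM, a composition-adjusted library size, as log2 of replicate 1 over replicate 2. None of the 9 genes differed by over 2-fold, where 13.5% of the 14831 genes that reached the mean count of 10 and 8.95% of the protein-coding genes did. Their median log2 ratio was 0.02, as was that of all genes. With the second quantification it was 0.25, against -0.03 for all genes. Tnfaip3 was higher in replicate 1, with a log2 ratio of 0.82 (95% counting interval 0.79 to 0.85), and so was Tnip1, at 0.74 (0.66 to 0.82). Tnip2 at 0.37 (0.22 to 0.53) and Rnf11 at 0.32 (0.18 to 0.46) were on the same side. Itch at -0.47 (-0.58 to -0.36) and Tnip3 at -0.15 (-0.17 to -0.12) were higher in replicate 2. The intervals of Tax1bp1, Cyld and Otud7b included 0. The intervals cover counting error only, and with 1 group of 2 libraries no test was made.

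**Figure D2:**
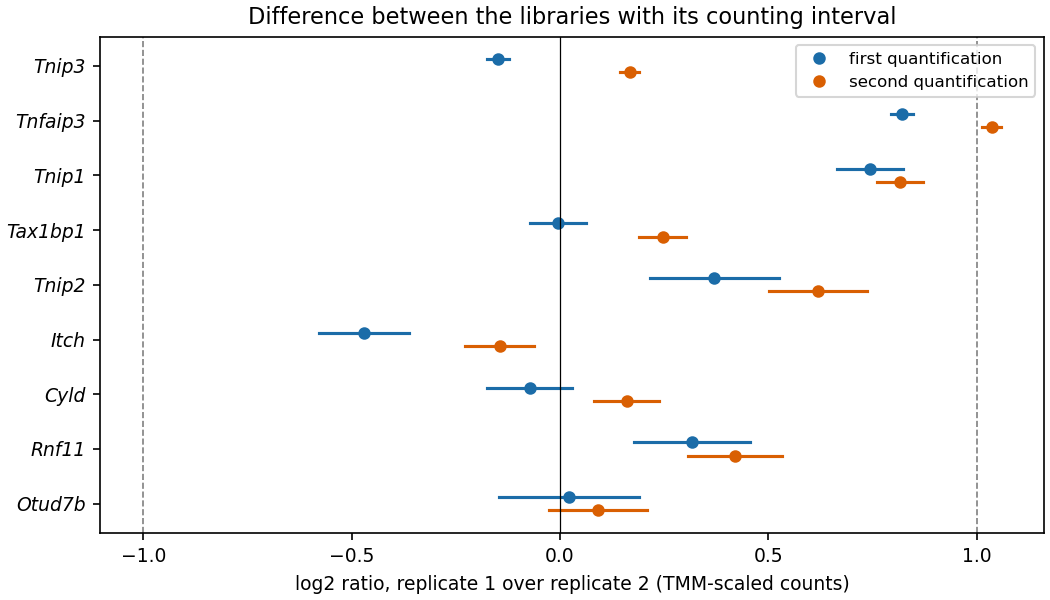
log2 ratio of replicate 1 over replicate 2 for each gene from TMM-scaled counts, by the first (blue) and second (orange) quantification. Bars are 95% counting intervals and dashed lines mark a 2-fold difference. By the second quantification Tnfaip3 passes that line at 1.04, and the signs of Tnip3, Tax1bp1 and Cyld differ from those of the first.

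These ratios depended on the scaling and on the quantification. With TMM, 5 of the 9 genes were higher in replicate 1 by the first quantification and 8 of 9 by the second. By library totals the median of all genes was -0.18, and the median of the 9 genes was -0.17, with 4 of 9 higher in replicate 1. On the TPM scale of the first quantification the median of the 9 genes was -0.20, against -0.36 for all genes, and 2 of 9 were higher in replicate 1. On that of the second it was -0.51, against -1.04 for all genes, and 0 of 9 were higher in replicate 1. Beyond 2-fold were Itch at -1.04 by TPM of the first, and Itch at -1.34 and Otud7b at -1.03 by TPM of the second. By TPM of the second quantification the median of all genes was itself beyond 2-fold, and Otud7b lay near it. The share of all genes beyond 2-fold is given for TMM of the first quantification only.

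Part of the RNA was assigned to isoforms that the annotation classes as retained intron, which keep intron sequence and have no annotated coding sequence. Of the 9 genes, 7 have such an isoform and Rnf11 and Otud7b have none. Tnip3 had 83.6% of its TPM on this class in replicate 1 and 83.3% in replicate 2, and Itch had 54.6% and 68.7%. These were the 2 members over 50% by the first quantification, where 20.4% of the 5524 genes with both classes and at least 1 TPM were. Tnip2 passed 50% too when the second quantification was used, at 63.7% and 65.3%. The share of all genes over 50% was computed for the first quantification only. By share of the first quantification's expected counts, which are not divided by length, Tnip3 alone was over 50%, at 78.4% in replicate 1 and 81.9% in replicate 2, where 16.4% of genes were over 50%. Itch had 30.3% and 45.1% of its counts there, but 47.6% and 58.3% by counts of the second quantification, a mean of 52.9%.

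Over all 5524 genes the median share was 30.9% of TPM and 18.2% of counts. Tax1bp1 had 31.0% of its counts on retained-intron isoforms in replicate 1 and 48.4% in replicate 2. Tnfaip3 had 25.5% in replicate 1 and 36.4% in replicate 2, and Cyld had 387 of its 1841 counts there in replicate 1 and 425 of 1341 (31.7%) in replicate 2. Tnip2 had 17.6% in replicate 1 and 15.9% in replicate 2, and Tnip1 had 2.24% and 2.25%. The share of counts was higher in replicate 2 for 6 of the 7 members, all but Tnip2, against 63.5% of the 5524 genes. In Tnip1 and Tnip2 the counting intervals of the libraries overlapped. The direction depended on the measure. By share of TPM, Tnip1 and Tnip3 were lower in replicate 2 as well as Tnip2. By counts of the second quantification, Tnip2 was higher in replicate 2 (26.2% and 30.5%) and Tnip1 alone was lower (5.21% and 4.89%). By the mean of the shares in the 2 libraries, protein-coding isoforms held over 50% of TPM in 7 of the 9 genes. They did so in 74.9% of 8506 protein-coding genes. Cyld was nearest this limit, at 57.7% in replicate 1 and 44.0% in replicate 2.

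**Figure D3:**
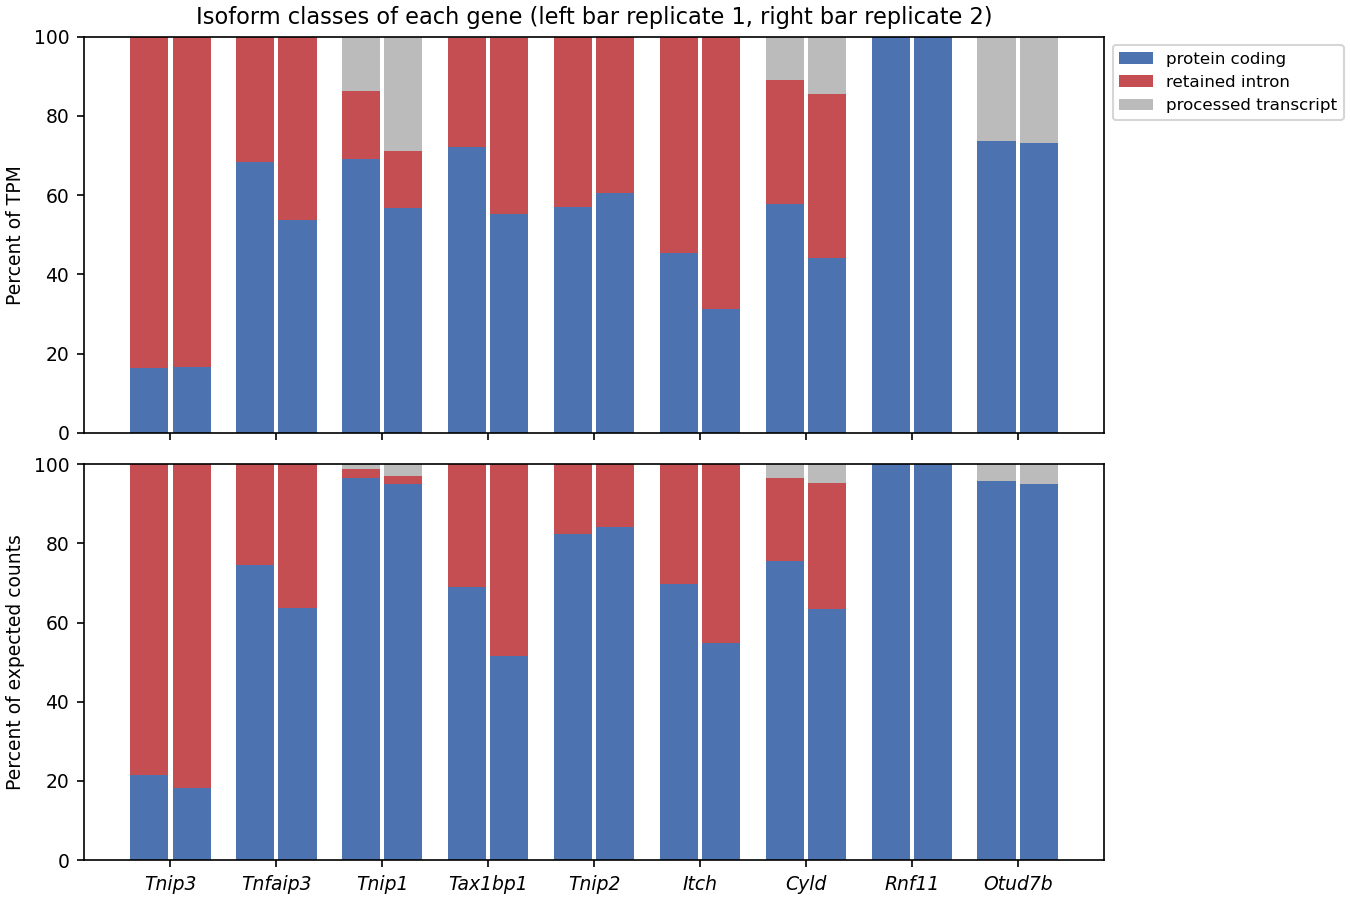
Percent of each gene's TPM (top) and of its expected counts (bottom), by the first quantification, on protein-coding (blue), retained-intron (red) and processed-transcript (grey) isoforms, replicate 1 at left and replicate 2 at right of each pair. Red fills most of the Tnip3 bars on both scales. It fills over 50% of the Itch bars on the TPM scale but not on the count scale of this quantification.

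Most Tnip3 counts were assigned to isoforms that lie largely in introns of its coding isoforms. Its longest retained-intron isoform, Tnip3-206, is 1 exon of 4627 bases, of which 94.7% lie outside all exons of the coding isoforms, and it holds an intron of 2816 bases (chr6:65590653-65593468) whole. It had 67.1 TPM in replicate 1 and 93.1 TPM in replicate 2. Tnip3-204, also 1 exon, of 2624 bases with 95.1% outside coding exons, had 39.5 TPM in replicate 1 and 93.4 TPM in replicate 2, over 2-fold apart. Both isoforms were higher in replicate 2. Together they held 69.5% of the gene's counts in replicate 1 (exact 95% binomial interval 68.9 to 70.0) and 78.1% in replicate 2 (77.5 to 78.7). The second quantification put 65.4% and 74.3% of counts on them.

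The spliced retained-intron isoforms of Tnip3 ran the other way on the TPM scale. Tnip3-203 had 68.0 TPM in replicate 1 and 45.8 TPM in replicate 2, and Tnip3-205 had 58.6 and 33.9 TPM. The deposited credibility bounds of Tnip3-203 were 60.8 to 72.3 TPM in replicate 1 and 38.2 to 50.4 TPM in replicate 2, and did not overlap. Tnip3-203 is short, at 426 bases, and its 683 and 245 counts were 2.49% and 1.16% of those of the gene. The coding isoform Tnip3-201 had 27.2 TPM in replicate 1 and 34.6 TPM in replicate 2, or 9.73% and 10.8% of the gene's TPM. Isoforms Tnip3-207 and Tnip3-208, which begin about 65 kb upstream, held 6.70% and 5.84% of TPM, and 14.6% and 12.7% by the second quantification. There Tnip3-207, at 14.2% and 12.7%, exceeded Tnip3-201, at 5.73% and 8.17%, so the order of the coding isoforms differed between the quantifications. Most Tnip3 TPM was therefore on isoforms beginning at or after the downstream start.

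The borders of the intron that Tnip3-206 keeps, and of the longer one that Tnfaip3-205 keeps, show what these isoforms retain. Each sequence is 30 bases of GRCm38 on the gene's strand, 15 on each side of the border, with the first or last bases of the intron in capitals. The Tnip3 borders are at chr6:65590638-65590667 and chr6:65593454-65593483 and the Tnfaip3 borders at chr10:19006848-19006877 and chr10:19005717-19005746.
Tnip3 intron start: atggagcacacagagGTaagagcatgtgtc
Tnip3 intron end: ttattatctttaaAGtgtgctccaccaaga
Tnfaip3 intron start: aggacagtggacctgGTaagaaaacatcag
Tnfaip3 intron end: ttttttccccttcAGaacttcgcgctgttc
All 4 carry the usual GT and AG letters of spliced introns.

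Tnfaip3 RNA was assigned to isoforms with different starts. Tnfaip3-201 begins at the upstream start shown above, whose window holds κB letters, and Tnfaip3-202 begins 3447 bases downstream, yet both have the same coding sequence of 2325 bases. Tnfaip3-201 had 89.0 TPM in replicate 1 and 32.8 TPM in replicate 2. Tnfaip3-202 had 57.7 TPM in replicate 1 and 59.7 TPM in replicate 2. Tnfaip3-201 was thus the higher of them in replicate 1, by 1.54 times, and the lower in replicate 2, at 0.549 times. This ratio was 1.07 in replicate 1 and 0.434 in replicate 2 when taken from the second quantification. The deposited credibility bounds of Tnfaip3-201 were 82.9 to 91.0 TPM in replicate 1 and 26.0 to 36.3 TPM in replicate 2, while those of Tnfaip3-202 overlapped between the libraries.

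Of the retained-intron isoforms of Tnfaip3, the long Tnfaip3-205 keeps 2 whole introns, of 1131 bases (chr10:19005732-19006862) and 699 bases (chr10:19003758-19004456). It had 31.2 TPM in replicate 1, against 31.3 TPM in replicate 2. The short Tnfaip3-206, of 764 bases, had 44.2 TPM in replicate 1 and 63.9 TPM in replicate 2. It held 18.6% and 31.0% of the gene's TPM but 2.91% and 5.70% of its counts. Tnfaip3-204, a coding fragment with a start between those of 201 and 202, held 6.74% and 8.80% of TPM by the first quantification and 25.8% and 25.6% by the second.

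**Figure D4:**
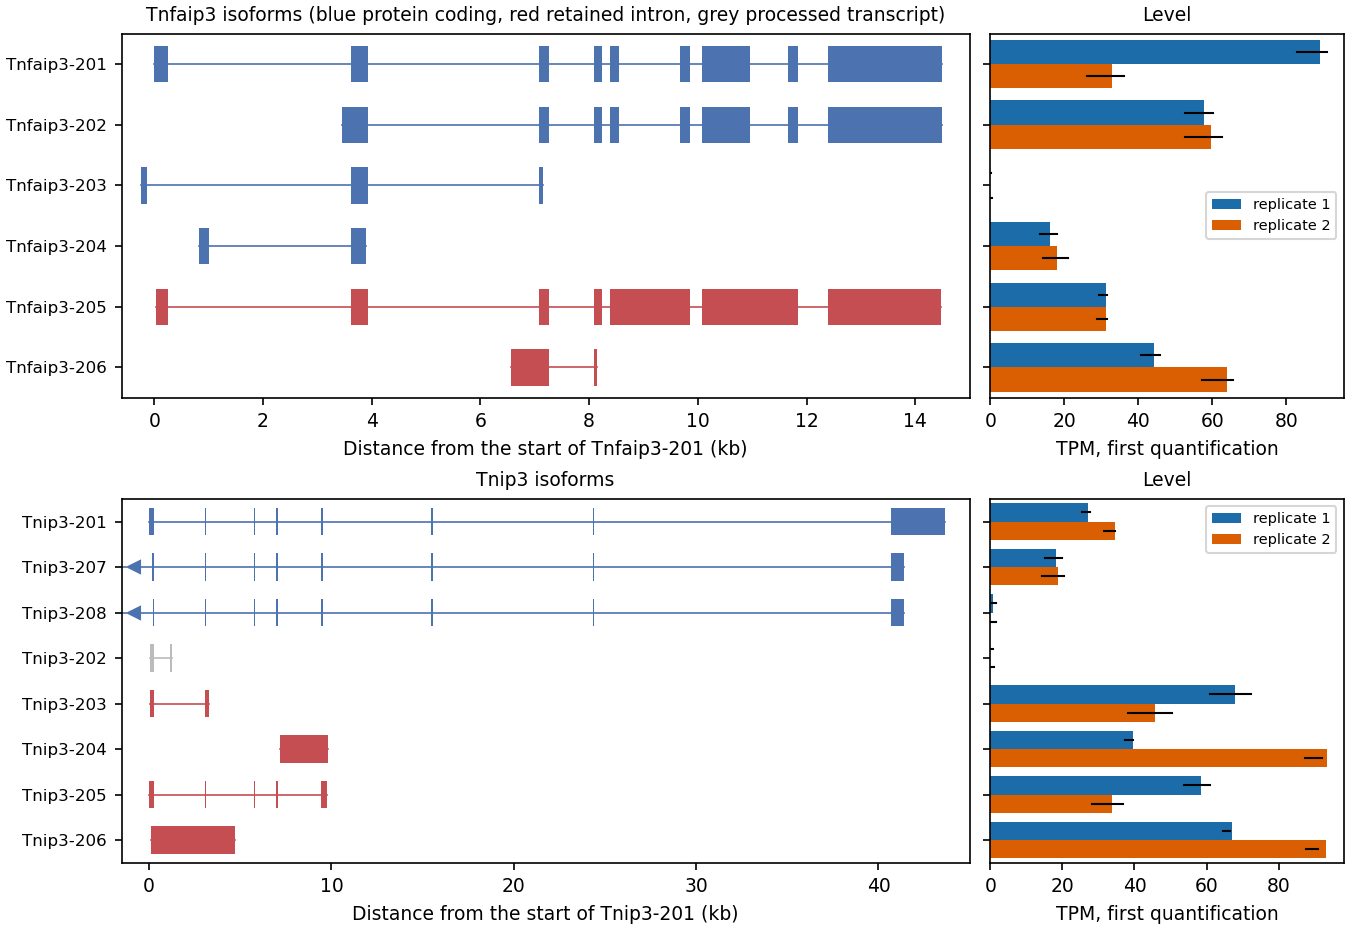
Exons (boxes) of every annotated Tnfaip3 and Tnip3 isoform against distance from the start of isoform 201 in kb, with the TPM of each in replicate 1 (blue bars) and replicate 2 (orange bars) and the deposited credibility bounds (black lines), some of which lie below the TPM itself. Arrowheads mark Tnip3-207 and Tnip3-208, whose starts lie about 65 kb to the left. Tnfaip3-201 is at 89.0 TPM in replicate 1 and 32.8 in replicate 2, and Tnip3-204 at 39.5 and 93.4.

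Tax1bp1-201, the longest coding isoform, held 64.3% of Tax1bp1 TPM in replicate 1 and 50.9% in replicate 2. The retained-intron isoforms Tax1bp1-206 (15.1% and 25.9%) and Tax1bp1-202 (12.5% and 18.6%) held most of the rest, and 92.5% and 79.0% of their bases lie outside coding exons. Tnip1-205 held 43.5% of Tnip1 TPM in replicate 1 and 39.2% in replicate 2, and Tnip1-202, with a longer coding sequence (1938 against 1782 bases), held 16.2% and 11.3%. The second quantification gave Tnip1-205 14.4% and 13.5%, below Tnip1-209 at 26.6% and 21.7%. The short Tnip1-209 (17.1% and 14.4%, retained intron) and Tnip1-210 (9.58% and 21.1%, processed transcript) held few counts, at 97 and 41 for Tnip1-209. Tnip2-202 held 50.2% of Tnip2 TPM in replicate 1 and 37.8% in replicate 2, and 35.6% and 34.7% by the second quantification. Tnip2-203 held 5.18% and 22.8%, but the second quantification listed it at 0. The retained-intron isoforms Tnip2-204 (19.2% and 13.9%) and Tnip2-206 (20.9% and 25.5%) completed the named Tnip2 isoforms.

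Among the ligases, Itch-201, the coding isoform, held 42.7% of Itch TPM in replicate 1 and 24.1% in replicate 2, and 20.4% and 12.1% by the second quantification. On the TPM scale Itch-201 had 3.87 TPM in replicate 1 and 4.49 TPM in replicate 2, whereas the retained-intron isoforms Itch-204 (3.05 and 7.99 TPM) and Itch-205 (1.57 and 4.61 TPM) were over 2-fold apart. The difference in Itch level between the libraries was thus mostly on these isoforms, of which 86.8% and 82.9% of bases lie outside coding exons. Rnf11 was carried by Rnf11-202 (62.2% and 56.7%) and Rnf11-201 (37.8% and 43.3%), which share a coding sequence of 462 bases. Their order in replicate 2 and on average was the other way by the second quantification, with 54.7% and 33.9% on Rnf11-202 and 43.8% and 63.2% on Rnf11-201.

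Among the deubiquitinases, Cyld-206 held 30.7% of Cyld TPM in replicate 1 and 21.6% in replicate 2 by the first quantification, and 15.6% and 0.00044% by the second. Cyld-203 held 11.5% and 14.2%, the processed transcript Cyld-208 held 11.1% and 14.4%, and the retained-intron isoforms Cyld-207 and Cyld-211 held 14.8% and 9.83% in replicate 1 and 23.6% and 18.0% in replicate 2. The coding isoform Cyld-210 held 0% and 2.42% by the first quantification but 18.0% and 31.3% by the second. Its coding sequence has the same length as that of Cyld-206, 2856 bases. Otud7b-201, with a coding sequence of 2520 bases, held 42.5% and 40.0% of Otud7b TPM on 634 and 441 counts. It was followed by Otud7b-204 (29.3% and 33.1%) and the processed transcript Otud7b-208 (21.1% and 26.9%). The second quantification put 0.0022% of Otud7b TPM on Otud7b-201 in replicate 1 and listed it at 0 in replicate 2. It put 13.0% and 13.3%, on 731 and 756 counts, on Otud7b-203, whose coding sequence has the same length. The first quantification had Otud7b-203 at 0. Across the 9 genes, the share of the leading isoform moved by more than the spread between libraries in 5 when the second quantification was used: Tnip1, Tnip2, Rnf11, Cyld and Otud7b. In Tnfaip3 and Tnip3 it moved less than that spread, yet another isoform led on average by the second quantification. Tnfaip3-206 had 26.3% there, against 15.5% for Tnfaip3-201, and Tnip3-205 had 25.7%, against 23.3% for Tnip3-206. By the first, Tnfaip3-201 led Tnfaip3-202 only by 26.66% against 26.62%. Of all 68 isoforms of the 9 genes, 33 held at least 10% of their gene's TPM in either library, and 10 were at 0 TPM in both.

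Some members share their locus with other annotated genes on the opposite strand, and whether counting used strand is not given in the sources used here. Tnip1 contains the pseudogene Gm12230 (193 and 93 counts, against 4361 and 1804 for Tnip1). Cyld contains Gm17910 (49 and 57 counts) and Gm17995 (15 and 9). Tax1bp1 contains Gm43967 (20 and 10) and Gm43966 (21 and 7), and Itch contains Gm14227 (20 and 14). No overlapping gene was annotated at Tnfaip3, Tnip3, Tnip2, Rnf11 or Otud7b.

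The lists of related genes are set beside the median of the 9 genes, 17.2 TPM. The 16 genes of A20 targets and their ubiquitin machinery had a median of 16.2 TPM and all reached 1 TPM in both libraries. Malt1, the paracaspase that cleaves A20, was highest at 596 ± 104 TPM, above every member, and Tab3, an adaptor of the kinase TAK1, lowest at 2.41 ± 0.28. The linear ubiquitin genes had a median of 14.7 TPM with 5 of 6 at 1 TPM or more, from Rnf31, the catalytic subunit of the linear chain ligase, at 25.0 ± 8.05 down to Spata2l at 0.40 ± 0.23. No gene of these lists differed by over 2-fold between the libraries.

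The relatives of single members were mostly lower. OTU deubiquitinases other than A20 and Otud7b had a median of 5.27 TPM with 8 of 11 at 1 TPM or more, led by Otud5 at 43.2 ± 5.37, and Otud7a had 0 counts. In this list Otud1 alone was over 2-fold apart. It had 7.81 TPM in replicate 1, against 4.46 TPM in replicate 2, and a log2 ratio of 1.19 (1.00 to 1.38). The NEDD4 ligases and adaptors around Itch had a median of 4.93 TPM with 7 of 10 at 1 TPM or more, from Wwp2 at 14.9 ± 0.30 to Hecw1 at 0 counts, and Itch itself (13.9 ± 6.77) lay near the top of their range. The autophagy receptors beside Tax1bp1 had a median of 12.8 TPM, from Sqstm1 (p62) at 231 ± 6.88 to Calcoco1 at 2.35 ± 0.70.

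The list of other NF-κB feedback genes, not all of them inhibitors, had the highest median of these lists, 42.9 TPM, with 13 of 14 at 1 TPM or more. Nfkbia, encoding the inhibitor IκBα, led, having 276 and 160 TPM (218 ± 82.3), a level close to that of Tnfaip3, and Nlrc3 was lowest at 0.81 and 0.80 TPM. Nfkbia, Nlrc5 and Usp18, the last encoding a protease that removes ISG15, were over 2-fold higher in replicate 1. Their TMM-scaled log2 ratios were 1.26, 1.16 and 1.00, and the counting interval of Usp18, 0.91 to 1.09, included the 2-fold limit. Beyond 2-fold in either direction were 13.5% of the 14831 genes compared and 8.95% of the protein-coding genes. Replicate 1 had the larger value for 12 of the 14 genes. The median of the list was 0.56, against 0.02 for all genes. The share of all genes higher in replicate 1, and ratios of this list by library totals, are not given here. Tnfaip3 and Tnip1, at 0.82 and 0.74, lay within the range of this list and Tnip3, at -0.15, below its lowest value. By the second quantification Tnip3, at 0.17, lay within the range too, above the lowest gene, Bcl3, at -0.09. The part of starting RNA amount and depth in these differences was not tested.

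**Figure D5:**
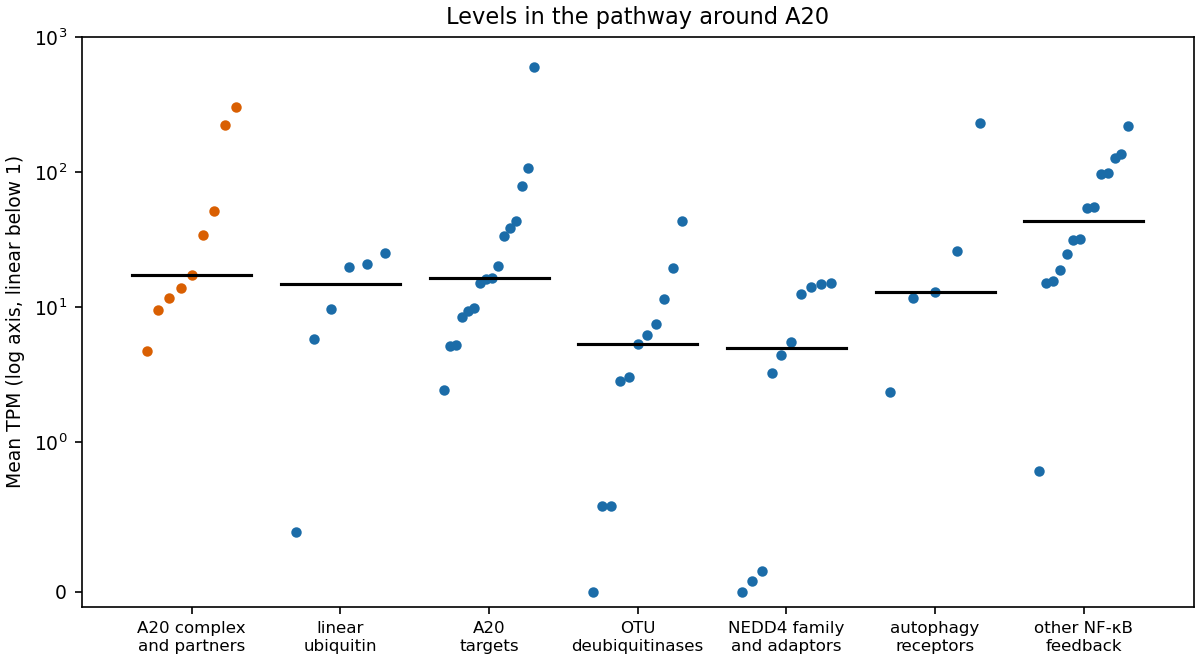
Mean TPM of each gene (log axis, linear below 1) in the A20 complex and partners (orange) and in 6 lists of related genes (blue), with black bars at the medians. The medians run from 4.93 TPM for the NEDD4 family to 42.9 TPM for other NF-κB feedback genes, with 17.2 TPM for the A20 complex and partners.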

How the data were processed

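Nucleoplasmic total RNA was measured in 2 libraries of 1 group, placed there by their labels. Each library came with 2 quantifications by the authors, on mm10 per the labels. The first has expected counts (reads shared between features split by a model), TPM and each isoform's percent of its gene's TPM, per the file headers, in columns named as RSEM names them. The second has estimated counts and TPM per transcript, per the file headers, in columns named as kallisto names them, which were summed per gene. The strand setting was, like the aligner and software versions, not given in the sources used here. Gene models were GENCODE on GRCm38, and promoter sequences were RefSeq on GRCm38.p6.

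Expected counts were rounded. Rows naming no gene (0.766% and 0.272% of counts) were left out of library sizes. TMM factors from edgeR 4.0.16 (R 4.3.3) were 0.935 and 1.07. Log2 ratios of replicate 1 over replicate 2 used a prior count of 0.5 and a minimum mean count of 10, with exact (Clopper-Pearson) 95% intervals. The ratios, but not the intervals, were tested on simulated counts with known folds. Those counts held sampling noise only, unlike these libraries. DESeq2 1.42.0 size factors were an alternative. Because the libraries form 1 group, no p-value was computed. Without molecular identifiers in the labels, intervals show counting error alone.

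The members and the lists were chosen with earlier results of these data known. Named were all members, isoforms with at least 10% of their gene's TPM in either library, and each list's highest and lowest gene and any beyond 2-fold. The lowest macrophage marker is not reported here. Beyond 2-fold among the lists of other cell types, on few counts, were Zbtb46, Cdh5 and Pecam1 (57 and 86, 19 and 4, and 58 and 19 counts in replicates 1 and 2). Alternatives were library totals, DESeq2 scaling, no count filter, a prior count of 2, TPM ratios, rescaled TPM, a log2 scale with a pseudocount of 1, the second quantification, leaving out either library and, chosen after seeing the data, shares of counts.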

Additional observations from a re-analysis of the deposited data

How the results depend on the processing

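The median level of the 9 genes, 17.2 TPM, was 14.1 TPM by the second quantification and 59.8 TPM when TPM was rescaled to leave out all but protein-coding genes and lncRNAs. It ranged from 16.96 to 18.64 TPM when either library was left out. No gene was over 2-fold apart between the libraries by TMM, library totals, DESeq2 size factors, no filter or a prior count of 2. By the second quantification 1 was (Tnfaip3, log2 ratio 1.04), and by the ratio of TPM 1 was (Itch, -1.04). By TPM of the second quantification 2 were (Itch, -1.34, and Otud7b, -1.03), where the median of all genes was itself -1.04. The share of all genes beyond 2-fold is given for TMM of the first quantification only. Over 50% of TPM was on retained-intron isoforms in 2 genes, in 1 by share of expected counts and in 2 by share of the second quantification's counts; these shares, and the TPM ratio of the second quantification, were chosen after seeing the data. Shares of all genes over 50% were computed for the first quantification only. Over 50% was on protein-coding isoforms in 7 genes, but in 4 by the second quantification. The cause of these differences was not tested. Of the single members, DESeq2 size factors, a prior count of 2 and no filter moved no ratio beyond its error, and library totals and TPM moved all 9. The second quantification moved 6 of 9 ratios, 7 of 9 levels and 5 of 9 leading isoform shares. No paired analysis was possible because the libraries form 1 group.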

Other observations

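The quantifications disagreed on Otud7a, the closest relative of Otud7b. The first gave it 0 counts in each library, and the second gave it 12.2 TPM in replicate 1, against 22.4 TPM in replicate 2. All of the second quantification's counts (286 in replicate 1 and 329 in replicate 2) were on Otud7a-202, a processed transcript of 396 bases, and the protein-coding isoforms were at 0.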
